A study of Mus musculus with 3 samples.

Results

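A small set of strong DNase I hypersensitive sites in brown fat cells had no site listed within 1 kb in either of the white fat libraries of the same study. From the brown fat (BAT) list of 48308 sites, the 12077 sites in the top 25% by the authors' normalized tag count were taken as strong. Of these, 247 had no site of the epididymal (eWAT) or the inguinal (iWAT) white fat list within 1 kb, measured from edge to edge. They made up 2.05% of the strong brown sites (95% interval 1.80 to 2.31). The other 11830 strong brown sites, which had a white fat site within 1 kb, served for comparison. The 3 lists together held 172496 sites. The 247 sites, chosen by their tag count and by their distance to white fat sites, are called far brown sites here.

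DNase I cuts DNA where nucleosomes are displaced, so a hypersensitive site marks a promoter, an enhancer or another stretch open to regulatory proteins. Sites open in a single cell type are, as general background, most often distal enhancers. Brown fat cells burn fuel to make heat through the mitochondrial protein UCP1, whereas white fat cells store lipid.

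All 3 cultures came from male NMRI mice 4 to 5 weeks old, with no genetic change named in the labels, and the labels give them the same treatment. Brown fat was pooled from several depots (between the shoulder blades, neck and armpit), per the labels' protocols. Stromal-vascular cells, which hold the precursors of fat cells, were grown for 8 days in medium with 10% newborn calf serum, 30 nM insulin and 1 µM rosiglitazone, a drug that activates PPARγ. Only cultures with more than 50% differentiation were used, so up to 50% of the cells of a culture may not be fat cells, and tissue architecture and innervation are missing. The label of brown fat could not be checked against marker genes, since no gene was assigned to any site here.

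There was 1 library per depot. No replicate error exists, no test between depots was made, and every difference below is between single libraries or between sets of sites of 1 library. Each share has an exact 95% interval by the Clopper-Pearson method, and it covers only the error of counting. Where a count was 0, the share it allows is given as 3 counts of the total, a limit slightly tighter than the exact interval. Neighbouring sites are not independent. The white libraries' tag counts at the far brown sites were not at hand, so a missing listing does not show closed chromatin there.

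The values that chose the sites come first, as a description. The tag counts of the far brown sites ran from 18.0 to 46.3 normalized tags, with a median of 21.4, against a median of 24.0 in the other strong brown sites, which reached 663. One tag was worth 0.857 normalized tags, so the far sites held 21 to 54 tags. Of the 247, 60 lay in the top 10% of the list and 0 in the top 1%, and the highest ranked 675th. Among all strong brown sites, the far share was 3.36% (89 of 2646) at 18 to 20 normalized tags. It was 0.243% (3 of 1235) at 40 or more. The border of the top 25% fell on a tie, with 601 of the 1167 sites at 18.0 normalized tags taken in order of chromosome and start. With all or none of the tied sites the far sites numbered 262 or 226.

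The limit of 1 kb also cut through a continuous range of distances. Just inside the limit stood a site on chromosome 4 at 123101274 to 123101496, 1015 bp from an iWAT site, one on chromosome 4 at 86317882 to 86318104, 1016 bp from an eWAT site, and one on chromosome 19 at 6995091 to 6995313, 1017 bp from an eWAT site. Just outside it stood sites on chromosome 3 at 30895591 to 30895813 (999 bp), chromosome 3 at 104417307 to 104417529 (997 bp) and chromosome 19 at 40507882 to 40508104 (997 bp). Most far brown sites were not remote from white fat sites. The nearest white site lay within 2 kb in 87 (35.2%), within 5 kb in 179 (72.5%) and within 10 kb in 211 (85.4%) of the 247. It was an eWAT site in 103 cases. In 1 case both white lists had a site at the same distance, and in the others an iWAT site was nearest.

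The main feature of the far brown sites that the rule did not use was that they rose little above the chromatin around them. The authors' file gives, for each site, the fold of its tag density over its local surroundings, and no listed site has a fold under 4. The median fold was 5.48 (95% interval of the median 5.18 to 5.88) in the far brown sites and 12.5 (12.4 to 12.7) in the other strong brown sites. Other strong sites within the tag count range of the far sites, up to 46.3 normalized tags, had a median of 12.2. The lower fold was therefore also found among sites of like tag count.

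Of the far brown sites, 99 of 247 (40.1%, 95% interval 33.9 to 46.5) had a fold under 5, beside 3.22% of the other strong sites. A fold under 6 was found in 147 (59.5%, 53.1 to 65.7), beside 7.83%. A fold of 12 or more was found in 34 (13.8%, 9.72 to 18.7), beside 53.2%. The other 66 lay between, at a fold of 6 to under 12, so the folds ran on from a low-fold majority to a smaller number of sharp sites. The tag density of the surroundings, scaled to the width of a site, was taken as the tag count divided by the fold. Its median was 4.19 normalized tags around the far sites and 2.07 around the other strong sites. This value restates the lower fold at slightly lower tag counts and is no separate measurement.

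**Figure D1:**
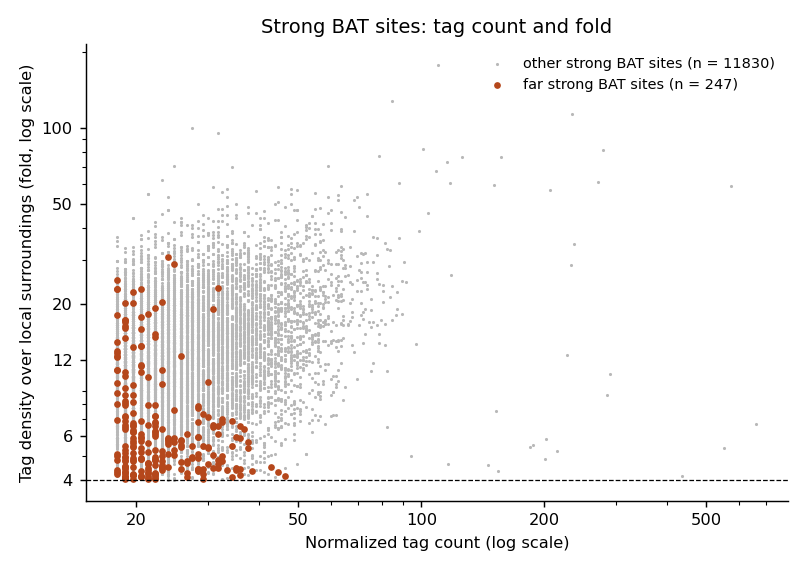
Normalized tag count (x, log scale) and fold of tag density over the local surroundings (y, log scale) of every strong BAT site, with the 247 far sites in orange and the other 11830 in grey. The dashed line is the fold of 4, the lowest in the deposited list. The far sites gather near that line and reach no further than 46.3 normalized tags.

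Read in the other direction, the share of strong brown sites that were far fell steeply with the fold. It was 25.8% (58 of 225, 95% interval 20.2 to 32.0) at a fold of 4 to 4.5 and 16.1% (41 of 255, 11.8 to 21.2) at 4.5 to 5. It was 8.09% at 5 to 6, 3.21% at 6 to 8 and 0.643% (21 of 3267, 0.398 to 0.981) at 8 to 12. Above a fold of 8 the share no longer fell, with 0.513% at 12 to 20 and 0.596% at 20 or more. The intervals of the lowest and the highest folds lie far apart.

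The same sites of low fold also more often had a white site beside them without overlap. At a fold of 4 to 4.5, 56.0% of the strong brown sites overlapped a white site and 18.2% had one within 1 kb without overlap. At a fold of 20 or more, 98.3% overlapped one and 1.14% had one beside them.

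This dependence on fold held at each level of tag count. Among strong brown sites with a fold under 6, the far share was 13.0% at 18 to 20 normalized tags (41 of 315), 13.3% at 20 to 25, 15.8% at 25 to 30 and 16.1% at 30 to 40 (22 of 137), with overlapping intervals. Up to 40 normalized tags it did not fall as sites held more tags. Among sites with a fold of 12 or more, it went from 1.75% at 18 to 20 (19 of 1085, 1.06 to 2.72) to 0.634% at 20 to 25 and 0.0936% at 25 to 30 (1 of 1068, 0.00237 to 0.521). Above 40 normalized tags, 0 of 921 such sites were far, which allows a share of up to 0.326%, against 3 of 42 with a fold under 6.

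**Figure D2:**
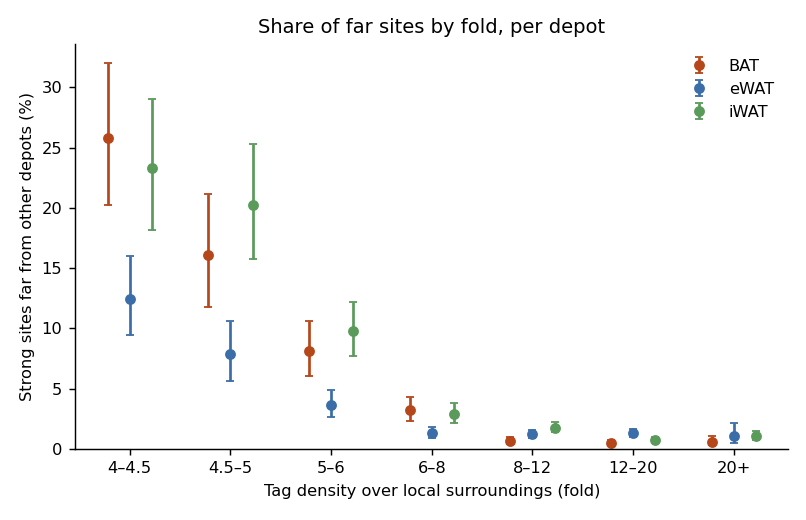
Share of the strong sites of each depot that had none of another depot's sites within 1 kb (y, %), by fold over the local surroundings (x, ranges of fold); points are shares and bars exact 95% intervals for counting error. In BAT the share goes from 25.8% at a fold of 4 to 4.5 to under 1% from a fold of 8 upward, and eWAT and iWAT also have their highest shares at low fold.

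The fold limit of 4 applies to each list, and the fold at one place differed between libraries. Of the 9925 strong brown sites that overlapped an eWAT site, 84.8% had the lower fold in eWAT, and the median ratio of eWAT to BAT fold was 0.751. Over the 10174 that overlapped an iWAT site the median ratio was 0.982. When only the eWAT list was asked for a site within 1 kb, 757 strong brown sites were far, and when only the iWAT list was asked, 417 were. At a BAT fold of 4 to 4.5 the matched eWAT sites had a median fold of 4.64 and the matched iWAT sites 5.12. These last values cannot fall under 4, since a site under that limit is not listed. Whether the far brown sites were missed in the white lists through the fold limit was not tested.

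The second question asked with these sites was whether they cluster with other brown sites. Another BAT site lay within 10 kb of 207 of the 247 far sites (83.8%, 95% interval 78.6 to 88.2), beside 62.5% of the other strong sites. The median distance to the nearest other BAT site was 3024 bp against 6689.5 bp. Within 50 kb the far sites had a median of 6 other BAT sites and the other strong sites 4. The far brown sites were thus in denser surroundings, but this went with their low fold.

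Within a range of fold, the far sites had neighbours more often or less often than the rest, depending on the fold and the distance. With a fold under 6, 90.5% of the far sites (133 of 147, 84.5 to 94.7) and 91.3% of the other strong sites had a BAT site within 10 kb. With a fold of 6 to 12 the shares were 92.4% (61 of 66, 83.2 to 97.5) and 79.5%, and with a fold of 12 or more 38.2% (13 of 34, 22.2 to 56.4) and 45.9%. Within 5 kb, the shares at a fold under 6 were 74.1% (66.3 to 81.0) and 81.9%, and within 50 kb those at a fold of 12 or more were 79.4% (62.1 to 91.3) and 91.4%. When the other strong sites were weighted to the fold ranges of the far sites, 82.9% had a neighbour within 10 kb, close to the 83.8% of the far sites.

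Very close neighbours were the exception. A BAT site within 1 kb was found for 17 of 247 far sites (6.88%, 4.06 to 10.8), against 14.8% of the other strong sites, or 27.1% when weighted to the same folds. The rule bears on this share, since a white site within 1 kb removes a brown site from the set. Of the nearest BAT sites at any distance, 72.5% overlapped a white site, beside 76.5% for the other strong sites. How much of the lower share follows from the rule was not tested. The nearest BAT site was itself strong for 158 far sites (64.0%, 57.6 to 70.0), against 36.6% of the other strong sites and 67.2% when weighted to the same folds.

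**Figure D3:**
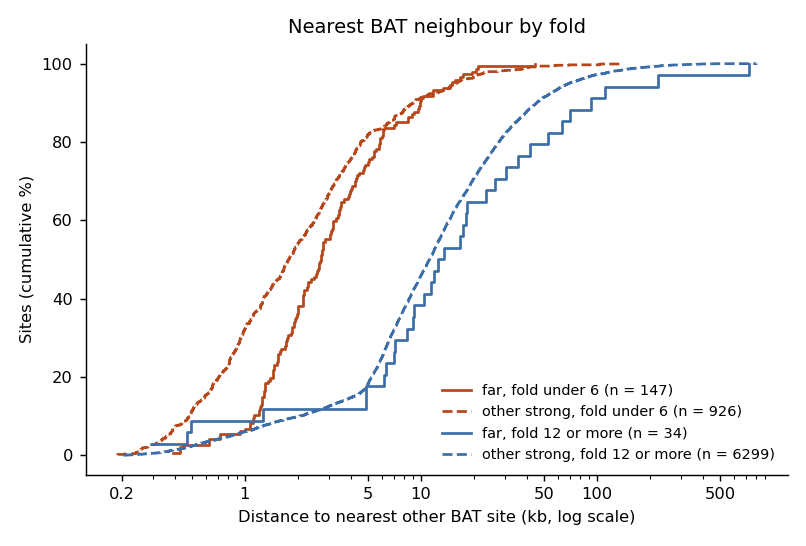
Cumulative share of sites (y, %) by distance to the nearest other BAT site (x, kb, log scale) for far sites (solid) and other strong sites (dashed) with a fold under 6 (orange) or of 12 or more (blue). The curves separate by fold. Under 5 kb the low-fold far sites have neighbours less often than the other low-fold sites, and at 10 kb the curves reach 90.5% and 91.3% at low fold and 38.2% and 45.9% at high fold.

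The far brown sites with the highest tag counts belonged to the low-fold majority. Of the 15 highest, 13 had a fold under 6, beside 59.5% of all 247. A white site lay within 5 kb of 12 of the 15, beside 72.5% of all 247. The highest of all lay on chromosome 6 at 115374674 to 115374896 and held 46.3 normalized tags, which is 54 tags (95% Poisson interval 40.6 to 70.5). It stood 4.16 times above its surroundings, and its nearest iWAT, BAT and eWAT sites were 2.90, 3.15 and 3.18 kb away. Its surroundings, again the tag count divided by the fold, were the richest of any far site, at 11.1 normalized tags per site width.

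The next site, on chromosome 1 at 195100836 to 195101058, held 44.5 normalized tags at a fold of 4.29, with white sites of both depots 2.35 and 2.36 kb away and 10 other BAT sites within 50 kb. Those next in rank stood further from white sites. The site on chromosome 16 at 65819283 to 65819505 held 42.8 normalized tags at a fold of 4.51, and its nearest eWAT, BAT and iWAT sites were 15.6, 15.6 and 15.7 kb away. The site on chromosome 9 at 50814880 to 50815102 held 38.5 normalized tags at a fold of 4.36, with the nearest white site, in iWAT, at 14.3 kb.

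Sites on chromosome 5 at 107593851 to 107594073 and chromosome 13 at 53074925 to 53075147 each held 37.7 normalized tags, at folds of 5.36 and 5.68, and had a white site 2.89 and 2.80 kb away. The only folds above 6 among the 15 belonged to a site on chromosome 4 at 40794176 to 40794398 (36.8 normalized tags, fold 6.39) and one on chromosome 17 at 33921827 to 33922049 (36.0 normalized tags, fold 6.53). The remaining 7 ranged from 34.3 to 36.0 normalized tags. No site of this group was both high in tags and sharp.

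The sharpest far brown sites held fewer tags, and 3 of the 8 sharpest had no other BAT site within 50 kb. Of the 34 far sites with a fold of 12 or more, 79.4% had one, beside 91.4% of the other strong sites with such a fold. The 8 with the highest fold ranged from 22.4 to 30.7 times above their surroundings and from 18.0 to 31.7 normalized tags, and none of the 8 had a white site within 5 kb. The sharpest lay on chromosome 18 at 66219697 to 66219919, with 24.0 normalized tags (28 tags, 18.6 to 40.5) at a fold of 30.7. Its nearest eWAT and iWAT sites were 17.9 and 18.0 kb away, and 2 further BAT sites lay in the same 38.0 kb between white sites. The second, on chromosome 9 at 32959873 to 32960095, held 24.8 normalized tags at a fold of 28.9. It had no other BAT site within 70.1 kb, an iWAT site at 15.6 kb and an eWAT site at 56.5 kb.

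The site on chromosome 19 at 57341095 to 57341317 held the most tags among these 8, with 31.7 normalized tags (37 tags, 26.1 to 51.0) at a fold of 23.2. An iWAT site lay 6.34 kb and an eWAT site 27.0 kb away. The site on chromosome 3 at 65214643 to 65214865 had a focus ratio, a measure from 0 to 1 of how sharply tags are centred, of 0.957. This was the highest value among the far sites, shared with a site on chromosome 12 at 100139984 to 100140206. Over the 247 sites the fold went with the focus ratio (Spearman's rho across sites 0.44, a description, since both values come from the same tags). The median focus ratio was 0.682 at a fold under 6 and 0.789 at a fold of 12 or more. Sharp far sites were thus also more narrowly centred. The other strong sites had the same order, with medians of 0.653 and 0.732, so this was not particular to the far sites.

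The far sites most remote from white fat were nearly all sharp. Of the 8 farthest, 7 had a fold of 12 or more and 5 had no other BAT site within 50 kb. Of the other strong sites, 53.2% had such a fold and 94.6% had another BAT site within 50 kb. Those with a fold of 12 or more had such a neighbour less often (91.4%) than those with a fold under 6 (99.4%). The 53.2% covers sites with and without such a neighbour, so it is no like share for lone sites. Distance to white sites also bears on distance to BAT sites, since 72.5% of the nearest BAT sites of far sites overlapped a white site. The farthest lay on chromosome 11 at 42885898 to 42886120, with 21.4 normalized tags (25 tags, 16.2 to 36.9), a fold of 18.3 and sites of all 3 lists at least 110 kb away. The next, on chromosome 5 at 83019726 to 83019948, held 18.8 normalized tags at a fold of 16.4 and was 92.1 kb from the nearest iWAT and BAT sites. On chromosome 3 at 13782688 to 13782910 a site of 18.8 normalized tags and a fold of 17.2 was 83.3 kb from an eWAT site and 723 kb from the next BAT site. These sites stood by themselves in stretches that were sparse in all 3 lists, with tag counts of 18.8 to 21.4, near the border of the strong sites.

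Some remote sites had a brown partner. Of the 36 far sites more than 10 kb from white sites, 2 had a BAT site within 1 kb and 6 within 5 kb. Among them was the last of the 8 farthest, on chromosome 5 at 51432560 to 51432782. This site held 25.7 normalized tags at a fold of 12.4. A second BAT site, from 51432040 to 51432262 with 15.4 normalized tags, lay 298 bp away. The nearest eWAT site was 30.8 kb and the nearest iWAT site 154 kb away, and both brown sites were the only ones in the 185 kb between white sites.

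With the limit raised to 10 kb, 36 far brown sites were left (0.298% of the strong sites, 0.209 to 0.412). Their median fold was 11.7, against 5.48 for all 247 and 12.5 for the other strong sites. The median fold was 5.39, 5.31 and 5.35 for sites 1 to 2, 2 to 5 and 5 to 10 kb from white fat, and 11.0 for the 33 sites 10 to 50 kb away. For 28 of the 36 there was no BAT site within 10 kb either. Of these 28, 17 had a fold of 12 or more (60.7%, 40.6 to 78.5). Of all other strong sites, 53.2% had such a fold and 62.5% had a BAT neighbour within 10 kb. Such a neighbour was rarer among other strong sites with a fold of 12 or more (45.9%) than under 6 (91.3%). The 53.2% is therefore no like share for sites without a neighbour. The remaining 8 of the 36 had a BAT neighbour within 10 kb.

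**Figure D4:**
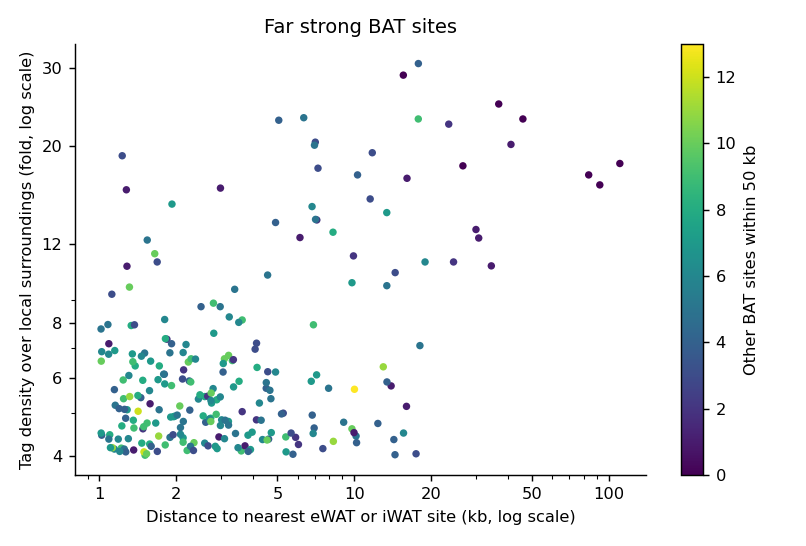
Distance from each of the 247 far BAT sites to the nearest eWAT or iWAT site (x, kb, log scale) and its fold over the local surroundings (y, log scale), coloured by the number of other BAT sites within 50 kb. Sites up to 10 kb from white fat have median folds of 5.31 to 5.39 by distance range, while the 3 sites beyond 50 kb have folds of 16.4 to 18.3 and none.

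Some far brown sites lay together. Chained at 100 kb or less, 43 of the 247 (17.4%, 12.9 to 22.7) formed 20 groups, of which 18 were pairs. No like share of other strong sites is set beside this one, so it cannot be called high or low. In 10 pairs no eWAT or iWAT site lay between the members. In 11 groups every member had a fold under 6. The closest pair, on chromosome 7 from 146205344 to 146206218, was 0.43 kb apart, with 18.8 normalized tags in both sites.

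The largest group was on chromosome 3 from 107489729 to 107568551 and held 4 far sites among 14 BAT, 6 eWAT and 7 iWAT sites. The far sites held 18.8, 24.8, 23.1 and 19.7 normalized tags at folds of 4.09, 5.05, 6.36 and 5.39. Of the 14 BAT sites, 9 were strong and 8 overlapped no white site. Between the iWAT site ending at 107533275 and the eWAT site starting at 107563268, a distance of 30.0 kb, only brown sites were listed: 3 of 11.1 to 12.8 normalized tags and the far site at 107546290 to 107546512. This was the highest number of BAT sites in any such gap around a far site, where the median was 1. Around this run, both white lists held sites where BAT did, such as 28.3 normalized tags in BAT, 26.2 in eWAT and 53.2 in iWAT near 107509126, each relative to its own library.

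The second group, on chromosome 15 from 3446685 to 3532982, held 3 far sites of 20.6, 22.3 and 23.1 normalized tags. Those of 22.3 and 23.1 normalized tags lay 2.15 kb apart and at least 4.73 kb from white sites, with folds of 4.09 and 4.52. The group also holds the far site nearest to a chromosome start, at 3446685 to 3446907.

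Paired far sites without white sites between them included chromosome 8 from 11382269 to 11383335 (26.6 and 31.7 normalized tags, 0.622 kb apart) and chromosome 6 from 5448744 to 5458254 (30.8 and 24.0, 9.07 kb apart). On chromosome 8 a site listed in all 3 depots followed the pair, the eWAT site at 1.37 kb, with 32.5 normalized tags in BAT, 31.5 in eWAT and 44.3 in iWAT. On chromosome 6 the pair was framed by a site common to all 3 lists on either side, with 33.4 and 36.8 normalized tags in BAT. A further pair, on chromosome 6 from 82716793 to 82721454, held 25.7 and 28.3 normalized tags, with an eWAT site 2.48 kb before it and an iWAT site 2.74 kb after it. The first pairs thus sat beside or between sites that the white lists share.

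More isolated was the pair on chromosome 5 from 58105877 to 58108178, with 22.3 and 26.6 normalized tags at folds of 4.03 and 4.74. The nearest eWAT site was 12.4 kb and the nearest iWAT site 38.8 kb away, and 3 BAT sites in all lay in the 43.2 kb between white sites. On chromosome 9 from 50468431 to 50469944, sites of 23.1 and 25.7 normalized tags lay 3.42 kb from the nearest iWAT and 8.76 kb from the nearest eWAT site. Most far sites were not of this kind: 176 of the 247 (71.3%, 65.2 to 76.8) were the only BAT site between their flanking white sites, and 11 shared that gap with 2 or more other BAT sites.

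**Figure D5:**
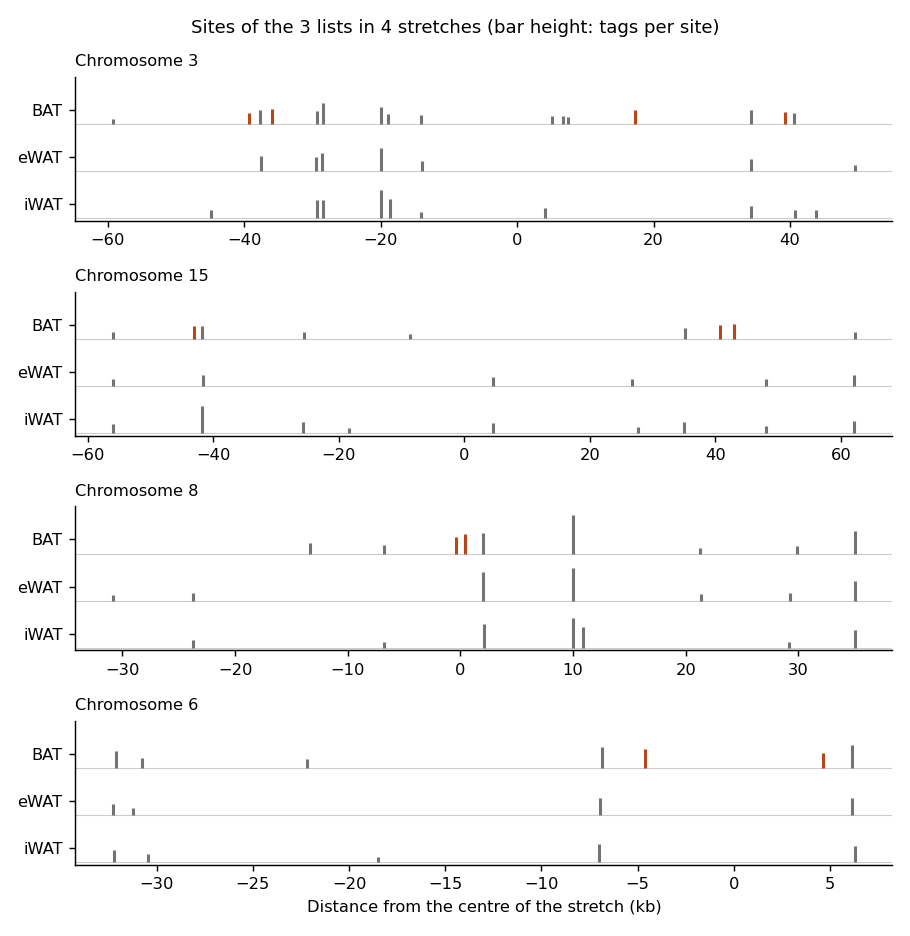
Sites of the 3 lists around the 4 groups of far BAT sites with the highest summed tag counts, placed by distance from the centre of each group (x, kb), with bar height proportional to the tags of a site in its own library. Far BAT sites are orange, and on chromosomes 8 and 6 the pairs lie within 3 kb of sites listed in all 3 depots.

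The far sites with the most BAT neighbours had 11 to 13 other BAT sites within 50 kb. The most crowded lay on chromosome 15 at 85510369 to 85510591, with 13, although its own nearest BAT and iWAT sites were both 10.0 kb away. Others lay on chromosome 4 at 144538107 to 144538329, chromosome 7 at 29164396 to 29164618, chromosome 11 at 100823528 to 100823750 and chromosome 13 at 37576462 to 37576684, with 11 each. Of these 8, 7 had a fold under 6, beside 59.5% of all 247. The 8 include 3 of the chromosome 3 group, so they are not all separate cases. White sites were also dense there, with 15 to 27 within 50 kb of each of the 8, against a median of 12 for all 247.

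No far brown site lay in the first 3.3 Mb of a chromosome: 0 of 247, which allows a share of up to 1.21%, beside 0.549% of the other strong sites. In that part of the chromosomes the BAT list held 65 strong sites, 30 of them on chromosome Y and 9 on chromosome 9. A white site overlapped 63 of the 65, and the other 2 had one within 254 bp. At this number of sites a share like that of the other strong sites could not be told apart from 0. By the same rule, 2 far eWAT sites and 4 far iWAT sites lay in the first 3.3 Mb.

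The far brown sites were found on every chromosome that had strong sites, except Y. Chromosome 4 held 25 (3.21% of its strong sites, 95% interval 2.09 to 4.70), chromosome 3 held 24 (3.03%, 1.95 to 4.48) and chromosome 1 held 9 (1.03%, 0.474 to 1.95). These chromosomes were singled out after their values were seen, and no difference between chromosomes was tested. On chromosome Y, 0 of 30 strong sites were far, which allows a share of up to 10.0%, and on chromosome X 4 of 162 were.

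The same rule applied to the white lists gave 298 far eWAT sites (1.96% of 15243 strong sites, 1.74 to 2.19) and 379 far iWAT sites (2.40% of 15803, 2.17 to 2.65). The interval of the brown share, 1.80 to 2.31, overlaps both. The lists differ in length, and BAT was matched against the longer ones, so the shares are no like comparison. At the 10 kb limit the eWAT and iWAT lists had 78 (0.512%, 0.405 to 0.638) and 77 (0.487%, 0.385 to 0.609) far sites, next to the 36 of BAT.

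Far white sites also had low folds. The median fold of the far sites was 6.80 in eWAT (95% interval of the median 5.86 to 7.77) and 6.17 in iWAT (5.68 to 6.59), against 5.48 (5.18 to 5.88) in BAT. A fold under 6 was found in 45.0% (39.2 to 50.8) of the far eWAT sites and 48.8% (43.7 to 54.0) of the far iWAT sites, against 59.5% (53.1 to 65.7) in BAT. Such a fold was found in 13.1% of the other strong eWAT sites and 6.88% of the other strong iWAT sites, beside the 7.83% of BAT. A fold of 12 or more was found in 20.5% (16.0 to 25.5) and 19.5% (15.7 to 23.9), against 13.8% (9.72 to 18.7) in BAT, with overlapping intervals. The fold also differed between whole lists, with medians of 7.46 in eWAT, 9.91 in iWAT and 9.23 in BAT, so a given fold does not mean the same in each. An own-list neighbour within 10 kb was found for 70.5% (64.9 to 75.6) of the far eWAT sites, 83.1% (79.0 to 86.7) of the far iWAT sites and 83.8% of the far BAT sites. The other strong sites had one in 65.5%, 68.2% and 62.5%, so the eWAT share lay near that of its list. No difference between depots was tested.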

How the data were processed

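DNase-seq of 3 cultures, 1 per depot, was used as deposited lists of called sites. Per the submitters' processing notes, STAR and HOMER were used with the mouse build mm9 (roles and versions are not stated there), and the columns of the deposited lists, per the file headers, are those of HOMER's findPeaks. The deposited normalized tag count is a signal relative to a library total not given in the sources used here. Besides this, the authors' files also hold a whole-number score, a focus ratio (a fraction), a fold (ratio) over local surroundings with its p-value (at most 9.98e-05 in any deposited list) and a clonal fold. The p-values were not used. Sites were 220 bp (eWAT) or 222 bp wide, with 1 exception per list. The value of 1 tag was taken as the largest step of which the low tag counts are whole multiples, and 99.9% of the BAT values were whole multiples (tolerance 0.055, or 0.0055 below 10 normalized tags).

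Coordinates are those of the deposited lists. A gene annotation and genome sequence of mm9 were not used here, so no gene is assigned and no sequence is printed. Distances, neighbour counts and gaps between flanking white sites were computed in Python (3.11.15) with the packages pandas (2.3.3), numpy (2.4.6) and, for exact intervals, scipy (1.17.1). Sites tied in tag count were ordered by chromosome and start. Strong sites were those in the top 25% of a list. Named sites are the 15 highest in tags, the 8 sharpest, the 8 farthest and the 8 with most BAT neighbours, plus groups and border cases. For the weighting to equal fold, 7 ranges of fold were used. The code was tested on 4000 simulated sites of a single chromosome without tied tag counts, and 100% of the far strong ones were found. The same code picked the strong sites there, so the test covers distances and neighbour counts but not that choice. The sites and measures were chosen with earlier results of these data known.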

Additional observations from a re-analysis of the deposited data

How the results depend on the processing

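No paired analysis was possible because each depot has 1 library. The number of far brown sites, 247, ranged from 226 to 312 with a limit of 500 bp, distances between centres, ranking by score, white lists cut to the length of the BAT list, without the first 3.3 Mb, without X and Y, without low clonal folds, and with 4 treatments of ties chosen after seeing the data. It was 160 at 2 kb, 36 at 10 kb, 60 in the top 10% of the list, 1067 in the top 50%, 903 when strong sites were ranked by fold, 597 against the top 50% of the white lists, 757 against eWAT alone, 417 against iWAT alone and 100 with a fold of at least 6. The eWAT number, 298, became 78 at 10 kb and 164 with a fold of at least 6, and the iWAT number, 379, became 77 and 194. The share of far brown sites with a BAT neighbour, 83.8% within 10 kb, was 97.2% within 50 kb, 68.4% within 5 kb and 66.0% when only strong neighbours counted. The same share of the other strong sites, 62.5%, was 82.9% when weighted to the folds of the far sites, a setting chosen after seeing the data. In the first 5 Mb of a chromosome lay 2.43% of the far sites, against 0 in the first 3.3 or 3.1 Mb. The median fold stayed between 5.43 and 5.49 under the 3 tie settings run for it, and at 5.48 without the first 3.3 Mb. The wider limits and smaller lists change the number by their construction. The depth of the libraries is not stated in the sources used here. One tag was worth 0.857 normalized tags in BAT, 0.595 in eWAT and 0.985 in iWAT. Depths thus differed if all 3 were scaled to the same total. The far sites held a median of 25 tags, so their rank near the border of the strong sites is uncertain.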

Other observations

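Few strong brown sites were high in tags, sharp and far from white fat at once. With limits of 25 normalized tags and a fold of 12, chosen after the values were seen, 3 of 3356 strong brown sites were far (0.0894%, 95% interval 0.0184 to 0.261). They lay on chromosome 19 at 57341095 to 57341317, chromosome 5 at 51432560 to 51432782 and chromosome 10 at 114545142 to 114545364. The chromosome 10 site held 30.8 normalized tags (36 tags, 95% Poisson interval 25.2 to 49.8) at a fold of 19.0. A BAT site of 14.6 normalized tags that overlapped a white site lay 1.26 kb away, and the nearest white site lay 1.23 kb away, not far beyond the limit of 1 kb. The nearest BAT neighbour of the chromosome 19 site, with 25.7 normalized tags at a fold of 11.5, also overlapped a white site.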
